A study of Sus scrofa with 18 samples.

Results

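RBP4, APOA4, LPL and FABP5 encode 4 proteins that carry retinol or lipid or release fatty acids, and their RNA was followed here in pig kidneys before and after transplantation. They were measured by 7 probe sets of the 23999 tested and are 4 of the 6765 genes that the platform annotation names singly. The members were chosen from their log2 levels over the 5 groups, with RBP4 picked as late and high, APOA4 as early and high, and LPL and FABP5 as low. Their levels against naive kidney and between the times are therefore given as a description, with no test.

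The series holds 18 Affymetrix arrays of total RNA from Sus scrofa kidney, and it concerns ischemia reperfusion injury, the damage that follows when blood returns to an organ, and treatment with carbon monoxide (CO). The naive group has 2 kidneys that were not transplanted. The transplanted kidneys were untreated or treated with CO and were taken at 4 h (donors 1 to 4) or at 24 h (donors 5 to 8), which gives 4 arrays in each of those 4 groups and 1 untreated and 1 CO kidney per donor. All of these kidneys were transplanted, so the naive comparison joins surgery, reperfusion and time. The strain, age, CO dose and route, and whether donor, organ or recipient received the gas, are not given in the sources used here. The treatment field of all 16 transplanted arrays reads air, and the title and source of each array were used to tell CO from untreated.

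Retinol-binding protein 4 is the plasma carrier of vitamin A. It travels bound to transthyretin, is filtered at the glomerulus and is taken back up in the proximal tubule through megalin. Apolipoprotein A-IV is a lipoprotein component best known from the intestine. Lipoprotein lipase frees fatty acids from the triglyceride of circulating particles at the capillary wall, and FABP5 holds fatty acids in solution inside cells.

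Signal was the authors' log2 level after robust multi-array averaging (RMA), which is relative within a probe set and does not rank 1 probe set against another. Array medians ran from 3.75 to 3.94, and the 95th percentile of 17 tag control probe sets, 1.61, served as background. The array of untreated donor 1 at 4 h correlated at 0.982 with the naive arrays and at 0.956 with its own group over all probe sets, and the results of the members that it moves most are also given without it. Array file names begin in 4 ways, here called array batches, and numbers in the file names of the naive arrays recur in those of donor 4. Donors 1, 3 and 4 and 1 naive array share a batch, and most 24 h arrays lie in a batch without naive kidney. The kidney label was checked against 6 proximal tubule markers of 10 listed, whose summed linear level was 6582 to 7496 in naive kidney. Of the podocyte and the loop and distal nephron lists, 1 marker each was measured, WT1 and KCNJ1, and neither passed in any comparison.

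RBP4 is measured by probe sets whose identifiers end in S1_at and A1_at, called RBP4 S1_at and RBP4 A1_at here. It had a late, high level on RBP4 S1_at and a lower late level on RBP4 A1_at. On RBP4 S1_at the naive kidneys read 4.32 and 2.89. Untreated 4 h kidneys read 3.55, 4.74, 5.47 and 5.68 for donors 1 to 4, and CO 4 h kidneys read 5.18, 6.64, 4.86 and 5.12. At 24 h, untreated kidneys read 9.17, 8.48, 8.15 and 7.78 for donors 5 to 8, and CO kidneys read 9.68, 8.77, 8.80 and 7.00. All 8 arrays at 24 h were above all 8 at 4 h and both naive arrays. The CO 4 h arrays also lay above both naive arrays, and untreated 4 h and naive overlapped through donor 1 only. At 4 h the differences from naive were 1.25 in untreated and 1.84 in CO kidneys (SE 0.70 each). They were 0.58 and 0.73 within the batch of donors 1, 3 and 4. Without the donor 1 array the untreated difference was 1.69 ± 0.67 (SE). In order, the group means were 8.56 ± 1.12 in CO 24 h and 8.39 ± 0.59 in untreated 24 h (SD, n = 4 each), then 5.45 ± 0.81 in CO 4 h and 4.86 ± 0.96 in untreated 4 h, and 3.61 ± 1.01 in naive (n = 2). Neighbours in that order overlapped except untreated 24 h and CO 4 h. Against naive the difference was 4.79 in untreated and 4.96 in CO kidneys at 24 h (SE 0.70 each), which is 27.6-fold and 31.1-fold. These folds depend on the naive arrays: they were 16.8 and 18.9 with the first naive array alone, 45.3 and 51.1 with the second alone, and 44.3 and 56.9 with the array batch as a block. In a bulk RNA array, fewer or more cells of a type and a change in RNA per cell cannot be told apart.

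The brighter RBP4 probe set, RBP4 A1_at, went the other way. Its naive arrays read 8.66 and 8.09. Untreated kidneys read 9.03, 7.31, 7.37 and 8.92 at 4 h and 6.12, 6.54, 7.25 and 7.66 at 24 h. CO kidneys read 7.41, 7.65, 7.11 and 8.81 at 4 h and 7.24, 7.40, 7.15 and 7.89 at 24 h. Both 24 h groups lay below both naive arrays, and the 4 h groups overlapped with every other group. From highest to lowest, the group means were naive (8.38 ± 0.40, n = 2), untreated 4 h (8.16 ± 0.95), CO 4 h (7.74 ± 0.74), CO 24 h (7.42 ± 0.33) and untreated 24 h (6.89 ± 0.69), and every pair of neighbours overlapped. The difference from naive at 24 h was -1.48 in untreated and -0.95 in CO kidneys (SE 0.54 each). Over the 18 arrays the 2 probe sets correlated at -0.64, and at -0.33 after group means were removed (-0.17 without the untreated array of donor 1). The late high level of RBP4 thus rests on RBP4 S1_at alone, and which of the probe sets reports RBP4 RNA was not tested.

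**Figure D1:**
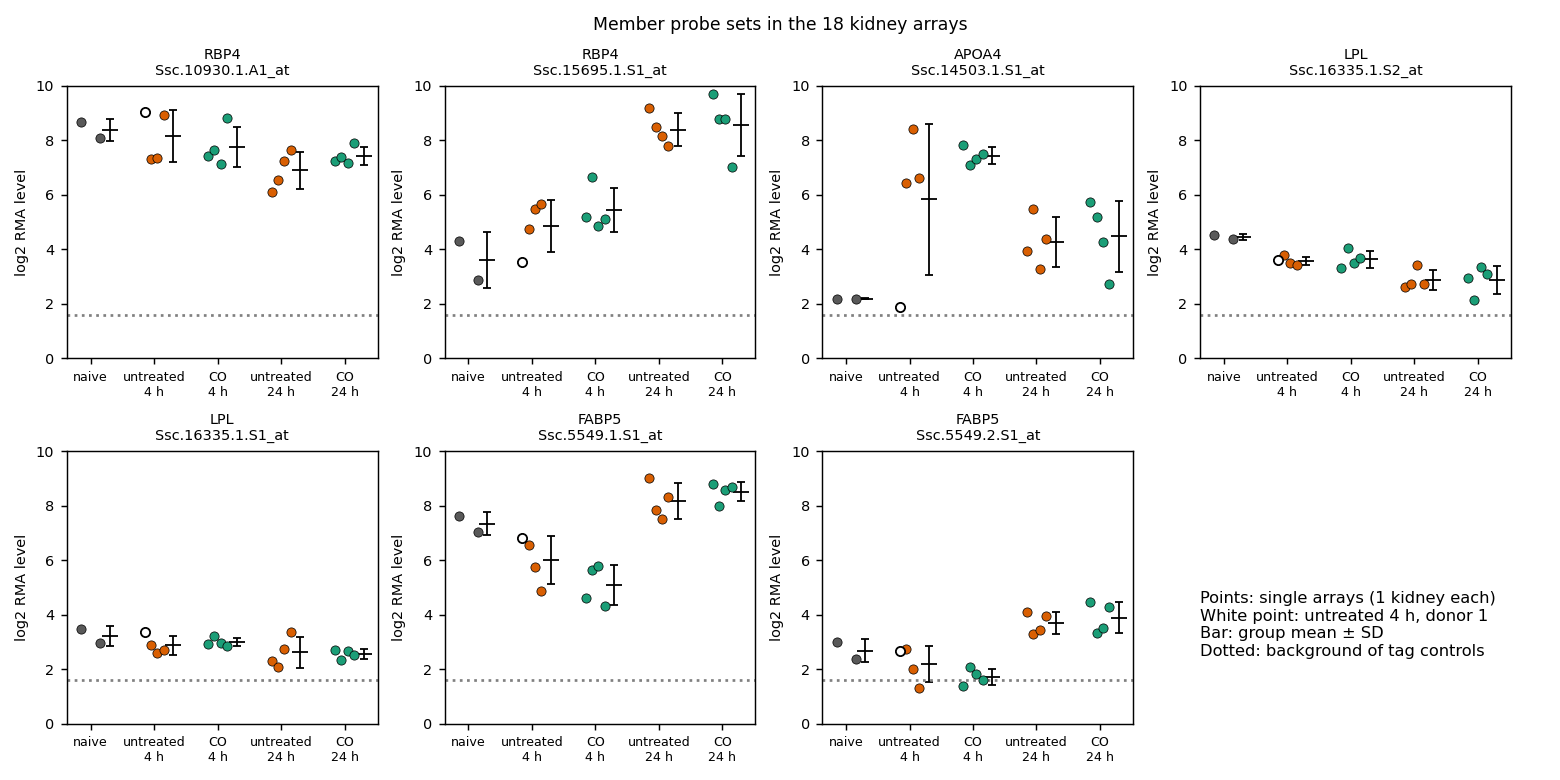
Log2 RMA level (vertical axis) of the 7 probe sets in each of the 18 arrays by group (horizontal axis), with the group mean ± SD as a bar and background (1.61) as a dotted line. APOA4 of untreated donor 1 at 4 h (white point, 1.88) lies by the naive arrays, RBP4 S1_at is high at 24 h, and FABP5 is low at 4 h and high at 24 h.

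Neither measured partner of RBP4, TTR or LRP2, passed in the upward direction. TTR, the transthyretin that carries RBP4 in plasma, had means of 4.04 in naive, 4.58 in untreated 4 h, 5.55 in CO 4 h, 2.62 in untreated 24 h and 3.37 in CO 24 h, and no change from naive passed. LRP2, the megalin receptor, fell by 3.32 ± 0.48 (SE) in untreated 24 h kidneys, by 2.29 ± 0.48 in CO 24 h kidneys and by 1.73 ± 0.48 in CO 4 h kidneys, with adjusted p of 0.000498, 0.00675 and 0.0274 by limma with Benjamini-Hochberg adjustment over all probe sets. In untreated 4 h kidneys LRP2 differed from naive by -1.19 ± 0.48 (adjusted p = 0.168). Proximal tubule markers moved with it: their summed linear level was 348 to 1091 in untreated 24 h, 702 to 2325 in CO 24 h, 3788 to 5724 in untreated 4 h and 2644 to 5111 in CO 4 h kidneys. All 6 measured markers, LRP2 among them, fell at 24 h in both groups. Of all probe sets, 7.77% were called lower in untreated and 5.93% in CO 24 h kidneys. The part of these markers in the RBP4 levels was not tested.

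APOA4 was near background in naive kidney and high in the 4 h kidneys, with 1 exception. Its single probe set read 2.19 and 2.17 in the naive arrays. Untreated 4 h kidneys read 1.88, 6.43, 8.41 and 6.60, and CO 4 h kidneys read 7.83, 7.08, 7.32 and 7.49. Only the untreated array of donor 1 stood at the naive level; the other 7 arrays at 4 h lay above all 8 arrays at 24 h. At 24 h, untreated kidneys read 3.95, 5.48, 3.29 and 4.36 and CO kidneys read 5.73, 5.17, 4.26 and 2.72, all above both naive arrays.

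The order of the APOA4 means was CO 4 h (7.43 ± 0.32), untreated 4 h (5.83 ± 2.78), CO 24 h (4.47 ± 1.31), untreated 24 h (4.27 ± 0.92) and naive (2.18 ± 0.02, n = 2). Of these neighbours, only untreated 24 h and naive did not overlap. Without donor 1 the untreated 4 h mean was 7.15 ± 1.10 (SD, n = 3). The CO 4 h level was 5.25 above naive on the log2 scale (SE 1.20), or 38.0-fold. Within the batch that holds a naive array and donors 1, 3 and 4, the differences from naive were 3.44 in untreated and 5.35 in CO 4 h kidneys. From 4 h to 24 h the level differed by -2.96 in CO kidneys and by -1.56 in untreated kidneys (SE 0.98 each), and by -2.88 in untreated kidneys without the array of donor 1. Naive levels lay only a little over background, where a log2 RMA difference can understate a change.

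In the RefSeq gene order of Sscrofa11.1, APOA4 lies between APOA5 and APOC3, with APOA1 next and SIK3 beyond it. The measured apolipoproteins beside it did not pass against naive. APOC3, an inhibitor of lipoprotein lipase, had means of 8.27 in naive, 7.52 in untreated 4 h, 8.15 in CO 4 h, 6.04 in untreated 24 h and 6.25 in CO 24 h. APOA1, the main protein of high density lipoprotein, ranged only from 6.86 to 7.46 over the group means. ZPR1, on the other side of APOA5, was higher than naive by 1.23 to 1.47 at 4 h and by 1.20 to 1.23 at 24 h, and passed in all 4 groups (adjusted p 0.00434 to 0.0335, limma, Benjamini-Hochberg). SIK3, a kinase, rose by 1.06 ± 0.28 in CO 4 h kidneys and fell by 0.90 ± 0.28 in untreated 24 h kidneys. Its differences in the other groups were close to these, at 1.01 ± 0.28 in untreated 4 h and -0.80 ± 0.28 in CO 24 h kidneys. They did not pass (adjusted p = 0.0697 and 0.0784, limma, Benjamini-Hochberg). ZPR1 and SIK3 were picked out after the neighbours' values were seen.

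Intestine, the organ best known for APOA4, was read from enterocyte markers, of which 3 were at background and 1 above it. Of 6 enterocyte markers 4 were measured, and FABP2, FABP6 and APOB had group means at or below background in all 5 groups. MTTP, which loads lipid onto apolipoprotein B, was above background and averaged 3.40 in naive and 2.30 to 2.73 in the transplanted groups. The summed linear level of the 4 was 13.7 to 21.9 in naive kidneys and 10.5 to 17.7 over the transplanted groups. Of 10 hepatocyte markers 9 were measured. The liver albumin gene ALB had means of 1.64 in naive, 1.87 in untreated 4 h and 2.19 in CO 4 h kidneys, and was below background at 24 h. The summed hepatocyte level was 337 to 343 in naive, 231 to 503 in untreated 4 h, 236 to 847 in CO 4 h, 153 to 559 in untreated 24 h and 221 to 437 in CO 24 h kidneys.

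LPL was lower in every transplanted group than in naive kidney on its brighter probe set, LPL S2_at, with small differences near the low end of the scale. LPL S2_at read 4.53 and 4.36 in the naive arrays. Untreated kidneys read 3.59, 3.78, 3.48 and 3.43 at 4 h and 2.62, 2.75, 3.41 and 2.74 at 24 h. CO kidneys read 3.31, 4.03, 3.49 and 3.68 at 4 h and 2.93, 2.15, 3.33 and 3.09 at 24 h. Both naive arrays were above all 16 transplanted arrays, the untreated groups did not overlap between the times, and the CO groups overlapped by a small margin. Means were 4.45 ± 0.12 in naive (n = 2), 3.63 ± 0.31 in CO 4 h, 3.57 ± 0.15 in untreated 4 h, and 2.88 ± 0.51 and 2.88 ± 0.36 in CO and untreated 24 h kidneys. Against naive this is -0.88 and -0.82 at 4 h in untreated and CO kidneys and -1.57 in each at 24 h (SE 0.28), the last close to 2.97-fold lower. Within the batch of donors 1, 3 and 4 the 4 h differences were -1.03 and -1.04.

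The second LPL probe set, LPL S1_at, had the same direction and smaller differences. Its arrays ran from 2.96 to 3.46 in naive, 2.58 to 3.37 in untreated 4 h, 2.86 to 3.21 in CO 4 h, 2.09 to 3.36 in untreated 24 h and 2.34 to 2.71 in CO 24 h kidneys. Only the CO 24 h group lay wholly below the naive arrays, and the difference from naive was -0.65 there and -0.60 in untreated 24 h kidneys (SE 0.29). The LPL probe sets correlated with each other at 0.64 over the 18 arrays and at 0.34 after group means were removed.

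LPL depends on partner proteins at the capillary wall. GPIHBP1, which anchors the enzyme to endothelium, had group means of 2.53 to 2.85 and passed in no comparison with naive. ANGPTL4, a secreted inhibitor of the enzyme, averaged 6.05 in naive, 7.48 in untreated 4 h, 7.53 in CO 4 h, 4.79 in untreated 24 h and 4.93 in CO 24 h kidneys. The naive arrays spread widely for ANGPTL4, and its largest change, 1.48 ± 0.85 in CO 4 h, did not pass (adjusted p = 0.275, limma, Benjamini-Hochberg). Fat tissue around the kidney expresses LPL, and 5 of 8 adipocyte markers were measured. Their summed linear level was 46.8 to 77.4 in naive, 47.1 to 78.4 in untreated 4 h, 50.2 to 72.1 in CO 4 h, 44.4 to 108 in untreated 24 h and 43.3 to 88.6 in CO 24 h kidneys, ranges that all overlap. ADIPOQ, the fat-cell hormone adiponectin, had group means below background in all 5 groups.

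FABP5 was low at 4 h and high at 24 h, so its label as a gene that is low after transplantation holds at 4 h only. On the brighter of its 2 probe sets the naive arrays read 7.63 and 7.03. Untreated 4 h kidneys read 6.82, 6.56, 5.75 and 4.88 and CO 4 h kidneys read 4.61, 5.65, 5.79 and 4.33. All 8 lay below both naive arrays. At 24 h, untreated kidneys read 9.02, 7.85, 7.50 and 8.33 and CO kidneys read 8.78, 8.00, 8.55 and 8.69, all above every 4 h array, and 7 of the 8 above both naive arrays.

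The order of the FABP5 means was CO 24 h (8.51 ± 0.35), untreated 24 h (8.18 ± 0.66), naive (7.33 ± 0.42, n = 2), untreated 4 h (6.00 ± 0.87) and CO 4 h (5.09 ± 0.73), and naive and untreated 4 h were the only neighbours that did not overlap. Differences from naive were -1.33 and -2.24 at 4 h and 0.85 and 1.18 at 24 h in untreated and CO kidneys (SE 0.52). Those at 4 h were -1.81 and -2.72 within the batch of donors 1, 3 and 4. Between the times the level differed by 2.17 in untreated and 3.41 in CO kidneys (SE 0.43), which is 4.51-fold and 10.7-fold. The dimmer probe set had means of 2.68 in naive, 2.18 in untreated 4 h, 1.73 in CO 4 h, 3.70 in untreated 24 h and 3.89 in CO 24 h kidneys, with 3 of 4 arrays above background in each 4 h group. It correlated with the brighter probe set at 0.96 over the 18 arrays and at 0.84 after group means were removed.

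None of the 3 other fatty acid binding proteins fixed as partners passed against naive. FABP4, which lies near FABP5 in the RefSeq gene order with PMP2 between them, had group means of 4.36 to 4.92, and its differences from naive of -0.20, -0.18, 0.36 and 0.29 in untreated 4 h, CO 4 h, untreated 24 h and CO 24 h did not pass. FABP3, the heart and distal tubule form, averaged 8.50 to 9.41 and passed nowhere. FABP1, the liver and proximal tubule form in some species, was below background in all 5 groups. Macrophages also express FABP5 and LPL, and 4 of 7 macrophage markers were measured. Their summed linear level was 56.0 to 86.2 in naive, 132 to 328 in untreated 4 h, 66.3 to 108 in CO 4 h, 137 to 801 in untreated 24 h and 93.4 to 558 in CO 24 h kidneys. CD163 and AIF1 rose in untreated 24 h kidneys and CD163 in CO 24 h kidneys, where 6.79% and 5.75% of all probe sets were called higher. CD14 did not pass, with means of 2.96 in naive, 4.72 in untreated 24 h and 4.48 in CO 24 h kidneys. MARCO went the other way, with 3.06 in naive and 2.61 to 2.92 in the transplanted groups, and did not pass. The part of these markers in the FABP5 levels was not tested.

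**Figure D2:**
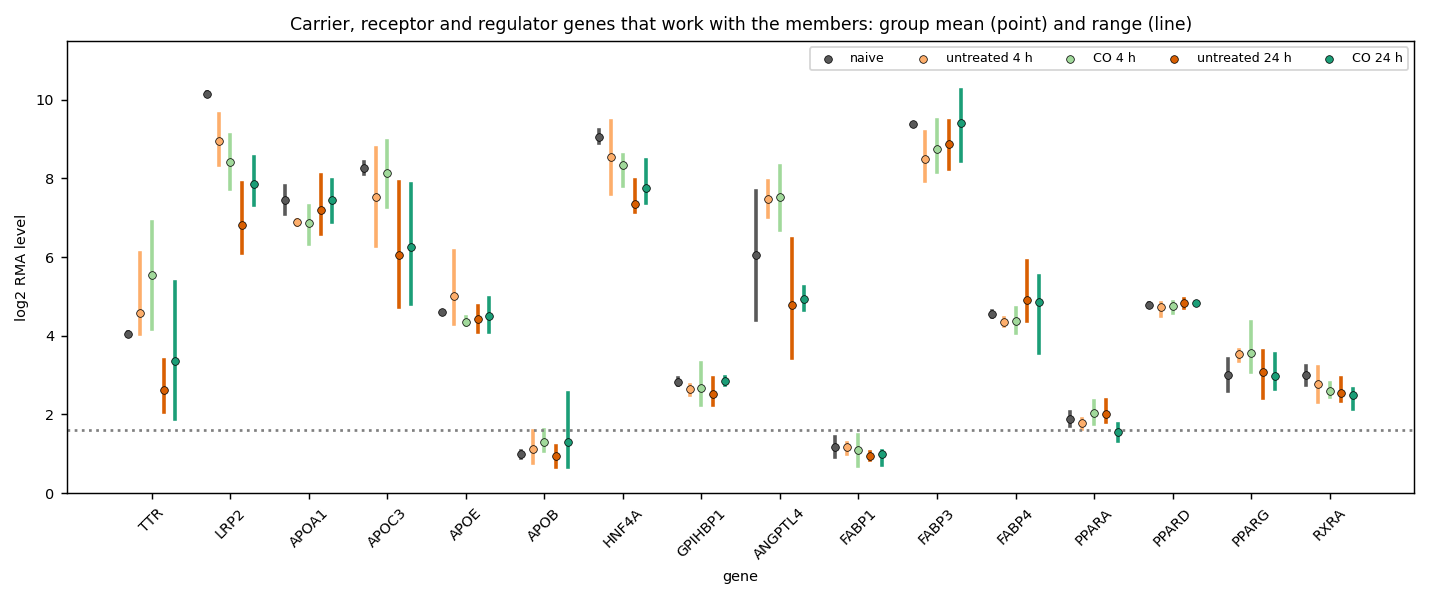
Log2 RMA level (vertical axis) of the 16 measured partner genes (horizontal axis), each group's mean as a point and its range over arrays as a line, with background as a dotted line. LRP2 falls from 10.1 in naive to 6.82 in untreated 24 h kidneys, and APOB and FABP1 have group means below background.

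CO kidneys were then compared with untreated kidneys of the same time, a contrast that the choice of members did not name. The levels by which all 4 members were picked do include the CO 4 h and CO 24 h arrays, so the values compared here are not independent of that choice. None of the 7 probe sets passed at 4 h, at 24 h or in the difference between the times, by limma with Benjamini-Hochberg adjustment. The background of these comparisons is the same, with 0% of all probe sets called in each: 0 of 23999 at 4 h, 0 of 23999 at 24 h and 0 of 23999 in the difference between the times. At an unadjusted p under 0.05, 1 of the 7 probe sets (FABP5) was reached at 4 h and 0 in both other contrasts, against 787, 281 and 612 of all probe sets. With the donor as a fixed block, 1 probe set of all was called at 4 h and no member in any contrast. The smallest adjusted p over the members was 0.999 at 4 h and 0.996 in the difference between the times.

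APOA4 showed the widest gap between CO and untreated kidneys at 4 h, and it rested on donor 1. Within donors 1 to 4, CO minus untreated was 5.95, 0.65, -1.09 and 0.89. The fitted difference was 1.60 ± 0.98 (SE; 95% interval -0.47 to 3.67), and 0.28 ± 0.63 without the untreated array of donor 1. At 24 h the differences for donors 5 to 8 were 1.78, -0.31, 0.96 and -1.64, and the fitted difference was 0.20 (95% interval -1.87 to 2.27). Within the array batch shared by both groups it was 1.91 at 4 h and -0.14 at 24 h. CO and untreated kidneys were thus not told apart for APOA4, and the intervals admit differences of several fold.

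FABP5 was lower with CO in 3 of 4 donors at 4 h and higher in 3 of 4 at 24 h. CO minus untreated on the brighter probe set was -2.21, -0.92, 0.04 and -0.56 for donors 1 to 4 and -0.24, 0.14, 1.06 and 0.36 for donors 5 to 8. The fitted difference at 4 h was -0.91 ± 0.43 (95% interval -1.81 to -0.0075; adjusted p = 0.999, limma), and -0.64 ± 0.44 without the untreated array of donor 1. At 24 h it was 0.33 ± 0.43 (95% interval -0.57 to 1.23), and the difference between the times was 1.24 ± 0.60 (adjusted p = 0.996, limma), or 0.97 ± 0.59 without that array. Within the shared batch the values were -0.91 at 4 h and 0.78 at 24 h. The dimmer probe set gave -0.46 ± 0.32 at 4 h (-0.30 without that array) and 0.19 ± 0.32 at 24 h, where CO was higher in 4 of 4 donors. These differences did not pass over all probe sets. Macrophage markers were also lower with CO at 4 h, with a median difference of -1.27 over the 4. Of these, 3 had an unadjusted p under 0.05 (limma), beside 787 of all 23999 probe sets, and none passed. The part of these markers in FABP5 was not tested.

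For RBP4 and LPL no difference between CO and untreated kidneys passed, and the intervals were wider for RBP4 than for LPL. For RBP4 at 4 h the difference was 0.59 (95% interval -0.62 to 1.81) on RBP4 S1_at and -0.41 (95% interval -1.35 to 0.53) on RBP4 A1_at. Without the untreated array of donor 1 these were 0.16 and -0.12. At 24 h it was 0.17 (-1.04 to 1.39) and 0.53 (-0.41 to 1.47) on the same probe sets. LPL S2_at differed by 0.06 (-0.43 to 0.55) at 4 h and -0.0045 (-0.49 to 0.48) at 24 h, the narrowest intervals of the members. On LPL S1_at the values were 0.11, or 0.27 without the untreated array of donor 1, and -0.06. Intervals for RBP4 leave room for a difference of more than 2-fold in either direction at 24 h on RBP4 S1_at.

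**Figure D3:**
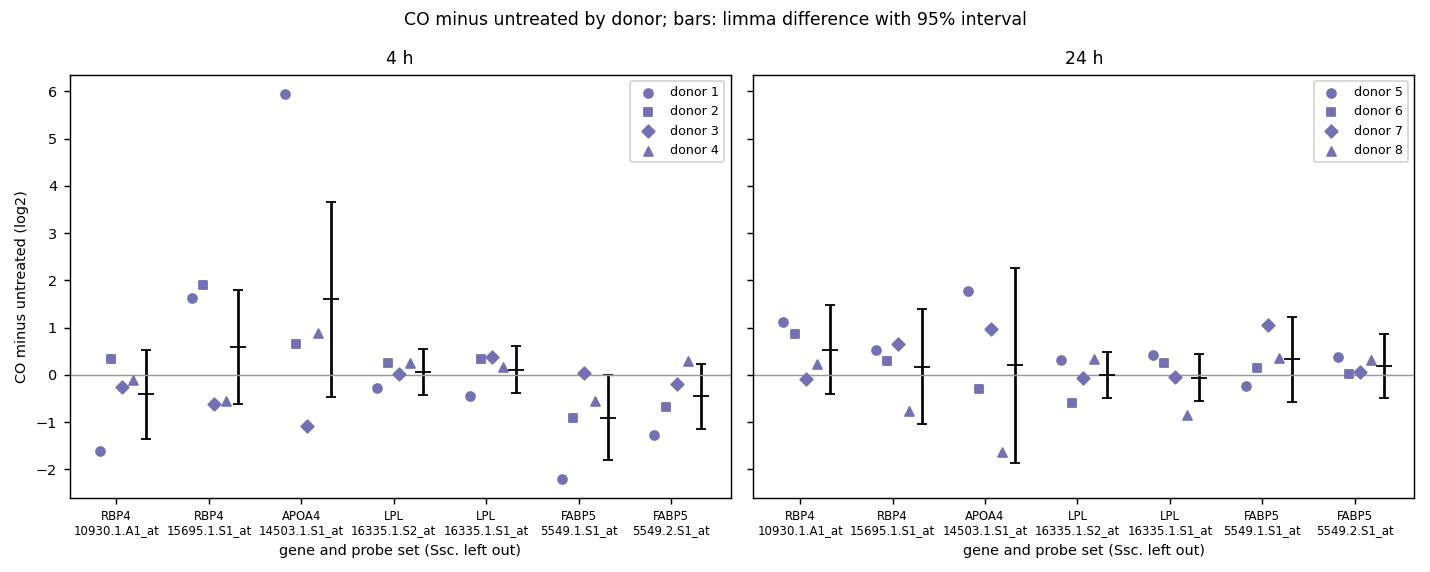
CO minus untreated level (log2, vertical axis) within each donor (points) for the 7 probe sets (horizontal axis) at 4 h and 24 h, with the limma difference and its 95% interval as bars. For APOA4 at 4 h, donor 1 stands at 5.95 and the other donors between -1.09 and 0.89.

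The genes most like each member over the 18 arrays were then listed. The measure was Pearson's r of log2 levels, over arrays that share groups, donors and batches, so it is given with no test. Only genes with 1 symbol and a mean level at or above the median of all probe sets, 3.92, were eligible. APOA4 was most like SLC7A1 (0.96), SARS (0.96), MED4 (0.94), CRYAB (0.94) and TLR4 (0.94), and after group means were removed these correlated with it at 0.88 to 0.95, and at 0.61 to 0.85 without the untreated array of donor 1. SLC7A1 imports cationic amino acids, SARS charges transfer RNA with serine, CRYAB is a small heat shock protein and TLR4 an innate immune receptor. FABP5 was most like PYGL (0.94), AKIP1 (0.93), ZDHHC16 (0.93), GPI (0.92) and XPNPEP1 (0.92). PYGL breaks down glycogen and GPI is a glycolytic enzyme. These genes correlated less with FABP5 once group means were removed, at 0.45 to 0.65.

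The RBP4 probe sets had separate neighbours. RBP4 A1_at was most like BBX (0.96), HSDL2 (0.92), FMO5 (0.90), C6H1orf210 (0.89) and TST (0.89), among which FMO5 and TST are metabolic enzymes of liver and kidney. RBP4 S1_at was most like EIF3I (0.96), AP2B1 (0.96), SELENOH (0.95), PSMA3 (0.95) and RBMX (0.95). With group means removed, the genes like RBP4 A1_at correlated with it at 0.87 to 0.95. Those like RBP4 S1_at did so at 0.66 to 0.78. EIF3I is a translation initiation subunit and PSMA3 a proteasome subunit. EIF3I averaged 7.48 in naive and 8.72 in untreated 24 h kidneys. LPL was most like PLXDC2 (0.88), OCA2 (0.84), KLF9 (0.83), RNF128 (0.83) and PBLD (0.83), all with group means lower at 24 h than in naive. Their r with LPL was 0.35 to 0.56 once group means were removed. Among the members themselves, RBP4 S1_at and LPL correlated at -0.77, APOA4 and FABP5 at -0.65, and RBP4 S1_at and FABP5 at 0.62. After group means were removed these were -0.0060, -0.39 and -0.07, and 0.0024, -0.13 and 0.14 without the untreated array of donor 1. Other pairs kept a larger r after that step. RBP4 S1_at and APOA4 correlated at 0.03 over the arrays and at 0.61 after it (0.45 without the donor 1 array). For RBP4 A1_at and FABP5 the values were -0.45 and -0.34 (-0.59 without that array).

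The wider pathways were read from 5 lists of related genes, of which 111 of 188 genes were measured, each by its brightest probe set. The shares given beside them are over all 23999 probe sets, dim ones and those without a gene symbol included. They are therefore not matched to the listed genes in level or annotation. In untreated 4 h kidneys 1 gene rose and 1 fell, where 0.942% of all probe sets were called higher and 0.563% lower. CO 4 h kidneys had 6 higher and 8 lower, with 6.84% and 6.72% of all probe sets called. Untreated 24 h kidneys had 9 higher and 18 lower, with 6.79% and 7.77% called, and CO 24 h kidneys had 14 higher and 16 lower, with 5.75% and 5.93% called. The median change of the 111 was -0.10, -0.12, -0.16 and -0.12 in these groups, against -0.03, -0.01, 0.0075 and -0.02 over all probe sets. CO against untreated gave 0 calls in limma at both times, with 3 genes at 4 h and 2 at 24 h at an unadjusted p under 0.05. Over all 23999 probe sets, 787 and 281 reached that level.

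These counts leaned on single arrays and on the batch. Without the untreated array of donor 1 the untreated 4 h count was 14 of 111 (12.6%) in place of 2, with 13.9% of all probe sets called in place of 1.5%. It was 0 without either naive array, without donor 2 or without donor 3, and 1 without donor 4, with at most 0.333% of all called. The CO 4 h count of 14 became 0 without either naive array (0.329% and 0.00417% of all probe sets called), 4 without CO donor 1 (6.01%) and 22 without CO donor 4 (16.3%). At 24 h, leaving out a naive array gave 13 or 17 in place of 27 in untreated kidneys (3.76% and 5.06% of all called) and 9 or 10 in place of 30 in CO kidneys (1.91% and 3.10%). The CO count was 18 without CO donor 5 or CO donor 7 (8.78% and 7.21%). With the array batch as a block, 5 genes were called in untreated and 0 in CO 24 h kidneys, beside 159 and 0 of all probe sets.

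Genes in the list of retinol transport and metabolism only fell where they passed. Of 16 measured, 1, 2, 5 and 3 were lower in untreated 4 h, CO 4 h, untreated 24 h and CO 24 h kidneys and 0 higher, and the list medians were -0.44, -0.56, -0.93 and -0.68. Of all probe sets, 0.563%, 6.72%, 7.77% and 5.93% were called lower. Proximal tubule markers, of which LRP2 is counted in this list too, had medians of -0.53, -1.11, -3.24 and -2.27 in the same groups, and their part in these counts was not tested. BCO2, which cleaves carotenoids, fell by 1.38 ± 0.30 in untreated 4 h and by 1.36 ± 0.30 in CO 4 h kidneys. It was also called lower in untreated 24 h kidneys. RARRES2, the secreted chemerin, neither carries nor converts retinol, and with LRP2 and DHRS4 made up the 3 lower genes in CO 24 h kidneys. It fell by 2.54 ± 0.36 and by 2.06 ± 0.36 in untreated and CO 24 h kidneys. DHRS4, a retinal reductase, fell by 1.39 ± 0.30 and by 1.06 ± 0.30 there.

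Of 26 apolipoproteins and lipoprotein receptors, 0 passed in untreated 4 h kidneys. At an unadjusted p under 0.05 in limma 5 were reached there, against 4973 of all 23999 probe sets. In CO 4 h kidneys 2 rose and 1 fell, in untreated 24 h kidneys 3 rose and 3 fell, and in CO 24 h kidneys 4 rose and 4 fell. Over all probe sets, 0.942%, 6.84%, 6.79% and 5.75% were called higher in these 4 groups, and 0.563%, 6.72%, 7.77% and 5.93% lower. Medians were -0.11, -0.17, -0.18 and -0.04. LRP8, a receptor for apolipoprotein E and reelin, rose by 2.28 ± 0.71 in CO 4 h, 3.71 ± 0.71 in untreated 24 h and 3.45 ± 0.71 in CO 24 h kidneys. CLU, the secreted chaperone clusterin also called apolipoprotein J, rose by 1.30 ± 0.36, 3.16 ± 0.36 and 3.02 ± 0.36 in the same groups. APOM, the carrier of sphingosine-1-phosphate in plasma, fell by 3.76 ± 0.52 and by 3.12 ± 0.52 in untreated and CO 24 h kidneys. APOO, a mitochondrial inner membrane protein in spite of its name, fell by 1.10 ± 0.28 in CO 4 h kidneys. Among APOA4's partners, APOE had means of 4.36 to 5.01 and passed nowhere.

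Of 15 lipases and lipase regulators, 0 passed at 4 h in either group, and 1 rose and 2 fell at 24 h in each group. At an unadjusted p under 0.05 in limma, 1 was reached in untreated and 3 in CO 4 h kidneys. Over all 23999 probe sets these counts were 4973 and 6809. At 24 h, 6.79% of all were called higher and 7.77% lower in untreated kidneys, and 5.75% and 5.93% in CO kidneys. Medians were 0.02, -0.05, -0.16 and -0.20. The carboxylesterase CES1 fell by 2.64 ± 0.65 and by 2.13 ± 0.65 in untreated and CO 24 h kidneys. PNPLA2, the adipose triglyceride lipase, changed by -1.14 ± 0.20 and -1.07 ± 0.20, and fell in both. The gene that rose, GLIPR1 (1.78 ± 0.41 and 1.75 ± 0.41), encodes a secreted protein that is not a lipase.

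Fatty acid binding, uptake and storage genes moved both ways. Of 35 measured, 0 passed in untreated 4 h kidneys, with 9 at an unadjusted p under 0.05 (limma), against 4973 of all 23999 probe sets. In CO 4 h kidneys 3 rose and 4 fell, in untreated 24 h 4 rose and 6 fell, and in CO 24 h 7 rose and 5 fell. The shares of all probe sets called in those 3 groups were 6.84%, 6.79% and 5.75% higher and 6.72%, 7.77% and 5.93% lower. Medians were -0.09, -0.08, -0.14 and -0.08. PLIN2, which coats lipid droplets, rose by 2.98 ± 0.74 in CO 4 h kidneys. ACSL4 and ACSL5 activate fatty acids. ACSL4 rose by 1.93 ± 0.38 in CO 4 h kidneys and was also called higher in both 24 h groups. ACSL5 rose by 2.51 ± 0.44 in untreated 24 h and by 2.34 ± 0.44 in CO 24 h kidneys. The transporter SLC27A6 fell by 1.74 ± 0.53 in CO 4 h, by 3.77 ± 0.53 in untreated 24 h and by 3.64 ± 0.53 in CO 24 h kidneys. DGAT2, the last step of triglyceride synthesis, fell by 3.22 ± 0.41 and by 2.91 ± 0.41 in untreated and CO 24 h kidneys. It was also called lower in CO 4 h kidneys.

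Of 19 lipid-sensing transcription factors, 1 rose and 0 fell in untreated 4 h, 1 rose and 1 fell in CO 4 h, 1 rose and 2 fell in untreated 24 h, and 2 rose and 2 fell in CO 24 h kidneys. All probe sets gave 0.942%, 6.84%, 6.79% and 5.75% called higher in these 4 groups, and 0.563%, 6.72%, 7.77% and 5.93% lower. Medians were -0.08, -0.04, -0.06 and -0.12. Not all genes called fit the name of the list. INSIG1, which rose in CO 24 h kidneys, is a membrane protein and not a transcription factor. CEBPB and KLF15 are transcription factors but not lipid receptors. CEBPB rose by 2.71 ± 0.48, 2.76 ± 0.48, 2.47 ± 0.48 and 1.91 ± 0.48 in untreated 4 h, CO 4 h, untreated 24 h and CO 24 h kidneys. KLF15 fell in the last 3 of these, with changes of -1.72 ± 0.55, -2.25 ± 0.55 and -1.99 ± 0.55. HNF4A, a regulator of apolipoprotein genes in liver and proximal tubule, averaged 9.06 in naive and fell by 1.71 ± 0.41 and by 1.30 ± 0.41 at 24 h in untreated and CO kidneys. The fatty acid receptors PPARA, PPARD and PPARG and their partner RXRA passed nowhere, and PPARA was near background with means of 1.57 to 2.03.

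**Figure D4:**
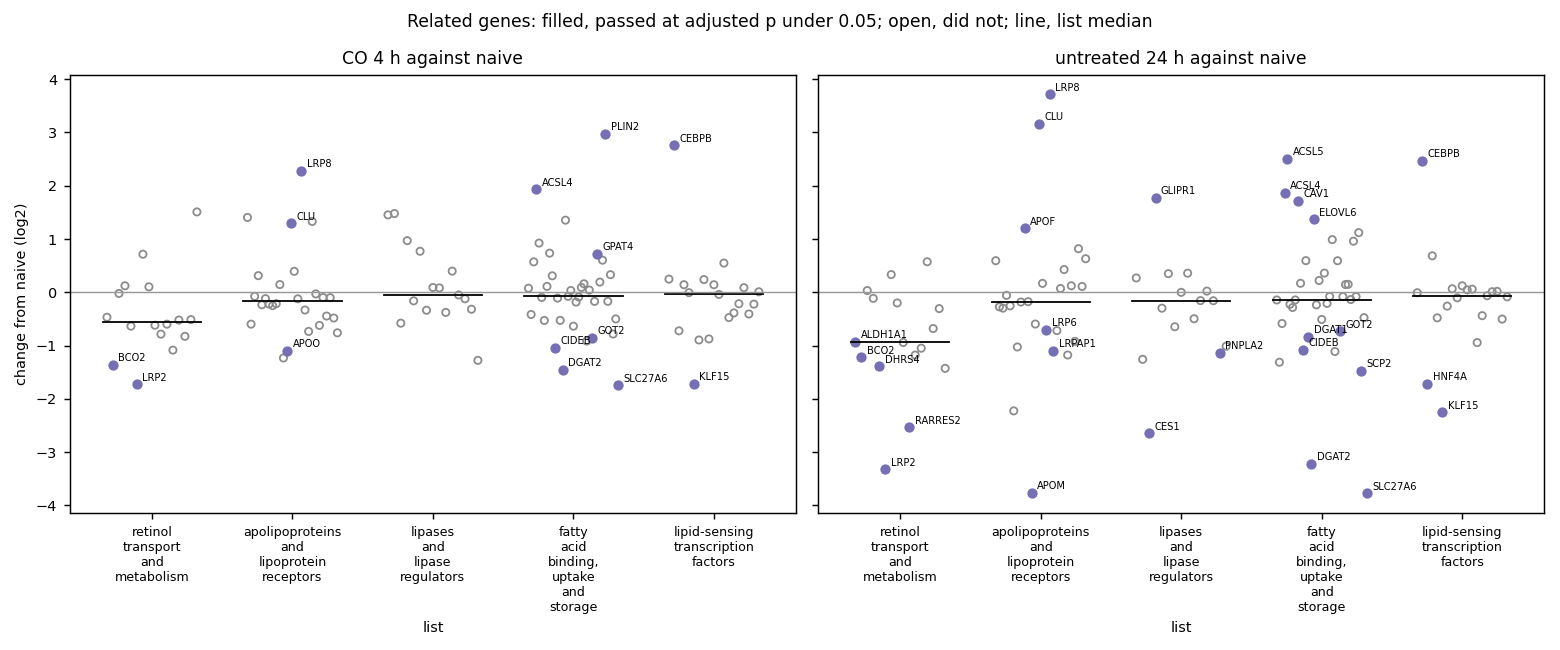
Change from naive (log2, vertical axis) of the 111 related genes by list (horizontal axis) in CO 4 h and untreated 24 h kidneys, with filled points for genes that passed at adjusted p under 0.05 and lines for list medians. The retinol list has medians of -0.56 and -0.93 and no filled point above 0.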

How the data were processed

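Kidney RNA from 18 arrays was analysed. The deposited table holds log2 values that the authors made with RMA, per the submitters' processing notes; its version and settings are not given in the sources used here. RMA compresses large and dim differences. Arrays were taken as separate kidneys, as labelled; p-values measure the spread between these arrays. The 124 control probe sets of 24123 were left out. Of the rest, 10069 carried 1 gene symbol, 198 several and 13732 none, and 9961 matched a RefSeq gene.

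A single limma 3.58.1 model (R 4.3.3, with statmod 1.5.0) with 5 group means was fitted to all 23999 probe sets, with Benjamini-Hochberg adjustment over all of them and a two-sided threshold of 0.05. Tests were checked on simulated data with independent noise and no donor or batch effect. A change of 1 log2 unit was found in 56% of cases (CO at 4 h), 44% (CO at 24 h) and 38% (difference between the times). For 0.5 these were 12%, 10% and 0%, and for 2 they were 94%, 100% and 74%. Python 3.11.15 and matplotlib 3.10.9 drew the plots. Donor numbers pair the kidneys by label; paired arrays correlated after group means were removed at -0.20, 0.07, 0.28, 0.57, 0.16, 0.35, 0.27 and 0.39 for donors 1 to 8. Alternatives were donor and array batch blocks, within-batch values, renormalisation, a trended fit, array weights, a filter on dim probe sets, fewer groups, other probe sets and single arrays left out.

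Members, lists and tests were chosen with earlier results of these data known. Named genes were the members, their fixed partners (16 of 21 measured), up to 3 passing genes of largest change per list and comparison, and 5 genes per member of highest r. Of the remaining marker lists, endothelium had 7 of 8 measured. Only PECAM1 passed, higher at 24 h in both groups, where 6.79% and 5.75% of all probe sets were called higher. Of the 7, 4 were lower than naive in untreated 24 h and 2 in CO 24 h kidneys, with list medians of -0.07 and 0.10. Muscle had 4 of 5 measured, with none that passed (limma, 0 at an unadjusted p under 0.05). AHSG of the hepatocyte list and MTTP of the enterocyte list were lower in CO 24 h kidneys, where 5.93% of all probe sets were called lower. No adipocyte marker passed. Sequences and coordinates were not used here.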

Additional observations from a re-analysis of the deposited data

Results flagged for a closer look

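In untreated 24 h kidneys, LPL S2_at was 3.41 in donor 7 and 2.62 to 2.75 in the other 3 donors. The gap between donor 7 and the nearest donor, over the range of the group, was above Dixon's critical value of 0.829 for 4 samples. This was the only case in 28 groups looked at, and chance gives about 1 in 20. The second LPL probe set read 2.72 in donor 7, within its group.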

How the results depend on the processing

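No member passed in any contrast of CO with untreated kidneys under any of the alternatives run. With the donor number as a fixed replicate block, the differences were unchanged in size (APOA4 1.60 and FABP5 -0.91 at 4 h, SE 0.93 and 0.32), and 1 probe set of all was called at 4 h. Differences near 0 changed sign, and the cause was not tested. For APOA4 at 24 h the value was -0.14 with a batch block, -0.14 within batch and -0.13 with array weights. For LPL S2_at it was -0.00686 within batch and -0.0368 with weights at 4 h; 0.152 with the batch block, 0.152 within batch, 0.0431 after quantile normalisation and 0.0858 with weights at 24 h; and 0.0936, 0.158 and 0.123 (block, within batch, weights) for the difference between the times. For LPL S1_at, array weights gave 0.211 at 24 h and 0.0180 for the difference between the times. The RBP4 S1_at difference between the times was 0.21 within batch.

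Taking the other probe set of a gene moved its values. RBP4 gave 0.59 (CO at 4 h), -0.42 (difference between the times), 1.25, 1.84, 4.79 and 4.96 against naive (untreated 4 h, CO 4 h, untreated 24 h, CO 24 h), and 3.53 and 3.11 between the times. LPL gave -0.33, -0.22, -0.60 and -0.65 against naive and -0.27 between the times in untreated kidneys. FABP5 gave -0.50 and -0.95 against naive at 4 h and 2.16 between the times in CO kidneys. A batch block gave -1.67 (RBP4 A1_at), 2.27 and 1.77 (FABP5, brighter and dimmer probe set) for CO 24 h against naive, -1.96 for LPL in untreated 24 h against naive, -1.14 for LPL between the times in untreated kidneys and 4.41 for FABP5 between the times in CO kidneys. RBP4 S1_at was 0.73 above naive in CO 4 h kidneys within batch.

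Related genes called were 0 in untreated 4 h kidneys with only the groups compared, and 5 and 0 in untreated and CO 24 h kidneys with the batch block. Leaving out 1 array at a time gave 0 to 14 (untreated 4 h), 0 to 22 (CO 4 h), 13 to 34 (untreated 24 h) and 9 to 32 (CO 24 h) of them. For CO against untreated it gave -0.20 to 0.69 (24 h) and -0.79 to 0.10 (difference between the times) for RBP4 S1_at; -0.22 to 0.78 for APOA4 at 24 h; -0.0767 to 0.165 (4 h), -0.16 to 0.24 (24 h) and -0.22 to 0.18 (difference) for LPL S2_at; and -0.23 to 0.19 (24 h) and -0.337 to 0.0850 (difference) on LPL S1_at. Comparisons with naive rest on 2 naive arrays, neither in the main batch of the 24 h kidneys.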

Other observations

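The second probe sets were also set against the same eligible genes, an addition made after the data were seen. All group means of LPL S1_at and of the dimmer FABP5 probe set lay below the cutoff of 3.92, so genes as dim were not eligible. LPL S1_at was most like NDRG2 (0.81) and CCNG2 (0.80) over the 18 arrays, and these correlated with it at 0.73 and 0.77 after group means were removed. For the brighter LPL probe set the first of its like genes, PLXDC2, correlated at 0.56 after group means were removed. The dimmer FABP5 probe set shared AKIP1 (0.93) and XPNPEP1 (0.91) with the brighter one, and had HMGB1 (0.92), which averaged 9.84 in naive, 9.58 in CO 4 h and 10.6 in CO 24 h kidneys.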
